A study of Mus musculus with 23 samples.

Results

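The bile acid genes of mouse liver were followed here as a list of 30 genes, chosen by gene symbol from the 65535 genes of the count table, for the enzymes that make and conjugate bile acids, the transporters that move them into and out of hepatocytes, and the receptors and repressors that set the rate of synthesis. The number 65535 is also the most rows that an xls sheet holds below a header, so genes may be missing from it. All 30 symbols were found, and 29 members had enough counts to be tested. The one left out by the filter on low counts was Slc51a.

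Livers of CYP2E1-KO mice, line 129/Sv-Cyp2e1tm1Gonz/J, were compared with livers of WT mice, line 129S1/SvImJ, in both sexes, by RNA sequencing of polyA RNA with counting at the 3′ end of transcripts. CYP2E1 is a cytochrome P450 of hepatocytes that acts on small molecules such as ethanol and acetone. The libraries were 6 Male KO, 6 Male WT, 6 Female KO and 5 Female WT, and each level below is the deposited CPM value, a count scaled to the library's total. All mice ate normal chow in shared cages, and their age is given as 12 to 13 weeks in 1 field of the labels and as 16 weeks in another. KO and WT are separate lines, so the disrupted gene and any other difference between the lines cannot be told apart. Nothing in the labels says which segment of Cyp2e1 was changed, and a 3′ count may lie outside it.

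Bile acids are made from cholesterol in hepatocytes. In the classic route CYP7A1 acts first and CYP8B1 adds the hydroxyl group that makes cholic acid, while the alternative routes start on side-chain or brain-derived oxysterols and pass through CYP27A1, CYP7B1 or CYP39A1. The products are joined to taurine in mice, secreted across the canalicular membrane into bile, taken back from portal blood at the basolateral membrane, and sensed by the nuclear receptor FXR, which lowers synthesis through the repressor SHP and through the intestinal hormone FGF15.

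Cyp2e1 averaged 32.4 ± 13.1 CPM in Male KO and 476 ± 54.0 CPM in Male WT (SD, n = 6 each), and 26.3 ± 7.29 CPM in Female KO (SD, n = 6) and 398 ± 63.4 CPM in Female WT (SD, n = 5). Its log2 fold change was -3.84 in males and -3.89 in females, so the labels and the counts go the same way. Library totals were between 1538889 and 9874733 counts. The smallest library was Male KO replicate 3, which also had the highest share of mitochondrially encoded counts in males, 16.1%. The hepatocyte markers Alb, Apoa1, Apob, Ttr, Asgr1 and Hnf4a summed to between 59807 and 85531 CPM in every library. Markers of T cells summed to at most 3.49 CPM and of B cells to at most 2.51 CPM, the neutrophil marker Ly6g was at 0 in all libraries, and Fgf15, the intestinal hormone gene, had a count in 1 library only. In whole liver, fewer cells of a type and less RNA per cell cannot be told apart.

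Members called between the sexes in 1 or both lines include 3 uptake transporter genes of the Slco family, Slco1a1, Slco1a4 and Slco1b2, which lie in the same stretch of chromosome 6, and the classic-route enzyme gene Cyp8b1 on chromosome 9. The 250 bases before their start sites are printed here because Slco1a1 and Slco1a4 moved in opposite directions between the sexes although they are close relatives and lie close together. The sequences are RefSeq's on GRCm38.p6, a build other than the mm39 of the counts, and are written 5′ to 3′ on the gene's strand. Bases just after the start site were found in an annotated transcript of the gene for Slco1a1, Slco1b2 and Cyp8b1. For Slco1a4, and for Slc51b named below, they were not, so those start sites were not borne out by this check. Capitals mark the palindrome TTCNNNGAA, the letters of a STAT5 binding motif, searched on both strands.
Slco1a1, chr6:141946963-141947212, minus strand: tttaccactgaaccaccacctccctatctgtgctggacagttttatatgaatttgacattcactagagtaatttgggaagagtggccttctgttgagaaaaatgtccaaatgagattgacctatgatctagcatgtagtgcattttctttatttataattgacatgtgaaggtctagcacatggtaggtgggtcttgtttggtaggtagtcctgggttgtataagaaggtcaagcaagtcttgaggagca
Slco1a4, chr6:141856221-141856470, minus strand: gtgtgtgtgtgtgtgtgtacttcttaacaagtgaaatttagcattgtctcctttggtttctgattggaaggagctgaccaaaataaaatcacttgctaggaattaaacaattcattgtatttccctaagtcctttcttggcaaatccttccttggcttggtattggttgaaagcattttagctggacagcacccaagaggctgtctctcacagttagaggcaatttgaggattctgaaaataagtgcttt
Slco1b2, chr6:141629268-141629517, plus strand: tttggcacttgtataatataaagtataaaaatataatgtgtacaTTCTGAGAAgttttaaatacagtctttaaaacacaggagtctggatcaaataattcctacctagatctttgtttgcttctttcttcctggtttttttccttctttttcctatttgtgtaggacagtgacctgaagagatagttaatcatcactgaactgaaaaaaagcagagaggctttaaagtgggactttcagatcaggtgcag
Cyp8b1, chr9:121916306-121916555, minus strand: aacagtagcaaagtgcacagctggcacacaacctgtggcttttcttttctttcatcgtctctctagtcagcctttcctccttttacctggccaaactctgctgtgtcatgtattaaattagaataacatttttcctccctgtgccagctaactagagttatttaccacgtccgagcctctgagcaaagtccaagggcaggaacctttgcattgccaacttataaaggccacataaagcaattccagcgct
Of these 4 windows the Slco1b2 window held the palindrome, starting 206 bases before the start site. RefSeq windows were matched for 22 members, 28 windows in all, and 6 of the 28 held TTCNNNGAA (those of Hsd3b7, Nr0b2, Slc10a1, Slc51b, Slco1b2 and Slco2b1), against 7.02% of 32851 promoter windows of the same length. An inverted repeat made of GGTCA, any 1 base and TGACC, the letters of an FXR element, was in 0 member windows and 0.0335% of all windows. The HNF1 palindrome, GTTAAT, any 1 base and ATTAAC, was in 0 member windows and 0.00913% of all. A match is a description of letters and not a site, and its absence says only that these letters are not in this window.

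Of the 30 listed genes, Abcc3 was the one called between the lines. ABCC3 (MRP3) exports conjugated bile acids and glucuronides from hepatocytes to blood. Abcc3 was lower in KO livers of both sexes, and averaged over the sexes it fell 1.42-fold. Within each sex taken alone no member passed. The receptors and repressors of the list had small negative values in both sexes that did not pass the test. A gene is called here when its Benjamini-Hochberg adjusted p over 11370 genes in edgeR's quasi-likelihood test is under 0.05.

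Abcc3 was between 47.7 and 98.6 CPM in Male KO, with a median of 64.7, and between 81.5 and 116 CPM in Male WT, with a median of 111. In Female KO it was between 75.0 and 121 CPM, with a median of 104, and in Female WT it was 144, 166, 134, 153 and 109.7 CPM. In each sex the KO libraries lay mostly below those of WT, but the groups overlapped, in males through Male WT replicate 2 and in females through Female WT replicate 5. The means were 69.4 ± 21.3 CPM in Male KO (SD, n = 6) and 107 ± 12.8 CPM in Male WT (SD, n = 6), and 99.2 ± 16.9 CPM in Female KO (SD, n = 6) and 141 ± 21.1 CPM in Female WT (SD, n = 5). The log2 fold change of Abcc3 averaged over the sexes was -0.50 (SE 0.11, adjusted p = 0.0277 by edgeR). It was -0.55 in males (SE 0.15, edgeR adjusted p = 0.171) and -0.46 in females (SE 0.15, edgeR adjusted p = 0.32). The interaction of sex and genotype for Abcc3 was -0.09 (SE 0.21, edgeR adjusted p = 0.988). Two-sided exact permutation tests on log2(CPM + 1) gave an adjusted p of 0.0371 for Abcc3 in males and 0.0541 in females, over 120 tests of 30 members in 4 comparisons. Those 120 tests pool the comparisons between the sexes with those between the lines. The many small p-values between the sexes lower the adjusted p between the lines. The averaged call was lost on leaving out any of 9 single libraries (Female WT replicate 1, 2 or 4, Male KO replicate 4 or 6, and Male WT replicate 3, 4, 5 or 6), with edgeR adjusted p between 0.0509 and 0.0668 and log2 fold changes between -0.50 and -0.47. Markers of Kupffer cells, the macrophages of the liver, summed to between 104 and 306 CPM in Male KO and between 89.8 and 136 CPM in Male WT, and to between 72.4 and 294 CPM in Female KO and between 134 and 195 CPM in Female WT. Of their 8 genes 7 were tested and 0 called between the lines by edgeR. In males all 7 were positive and 4 had an unadjusted p under 0.05 (median log2 difference 0.65). In females all 7 were negative and 0 had an unadjusted p under 0.05 (median log2 difference -0.18). Markers of sinusoidal endothelium summed to between 84.4 and 186 CPM in Male KO and between 126 and 157 CPM in Male WT, and to between 48.9 and 181 CPM in Female KO and between 162 and 194 CPM in Female WT. Of these 7 genes 0 were called by edgeR, and in females 6 were negative and 4 had an unadjusted p under 0.05 (median log2 difference -0.49). In males 6 of the 7 were positive and 0 had an unadjusted p under 0.05 (median log2 difference 0.12). The part of either cell type in the result was not tested.

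Averaged over the sexes, 1 of 29 members was called, against a background of 0.431% of all genes, or 0.237% for genes lower in KO. In males 0 of 29 were called by edgeR and 0 by DESeq2, against a background of 0.132% of genes, and 4 had an unadjusted p under 0.05, against 13.1% of genes. With sample weights limma-voom called 2 members in males, Abcc3 and Slco1b2, and 0 in females. In females 0 of 29 were called by edgeR and 0 by DESeq2, against 0.193% of genes, and 5 had an unadjusted p under 0.05, against 8.84% of genes. The median log2 difference of KO from WT over the members was -0.09 in males, where that of all genes was 0.04, and -0.09 in females, where that of all genes was 0.01. Of the members, 18 had a negative value in males, against 44.1% of all genes, and 19 in females, against 48.3% of all genes.

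**Figure D1:**
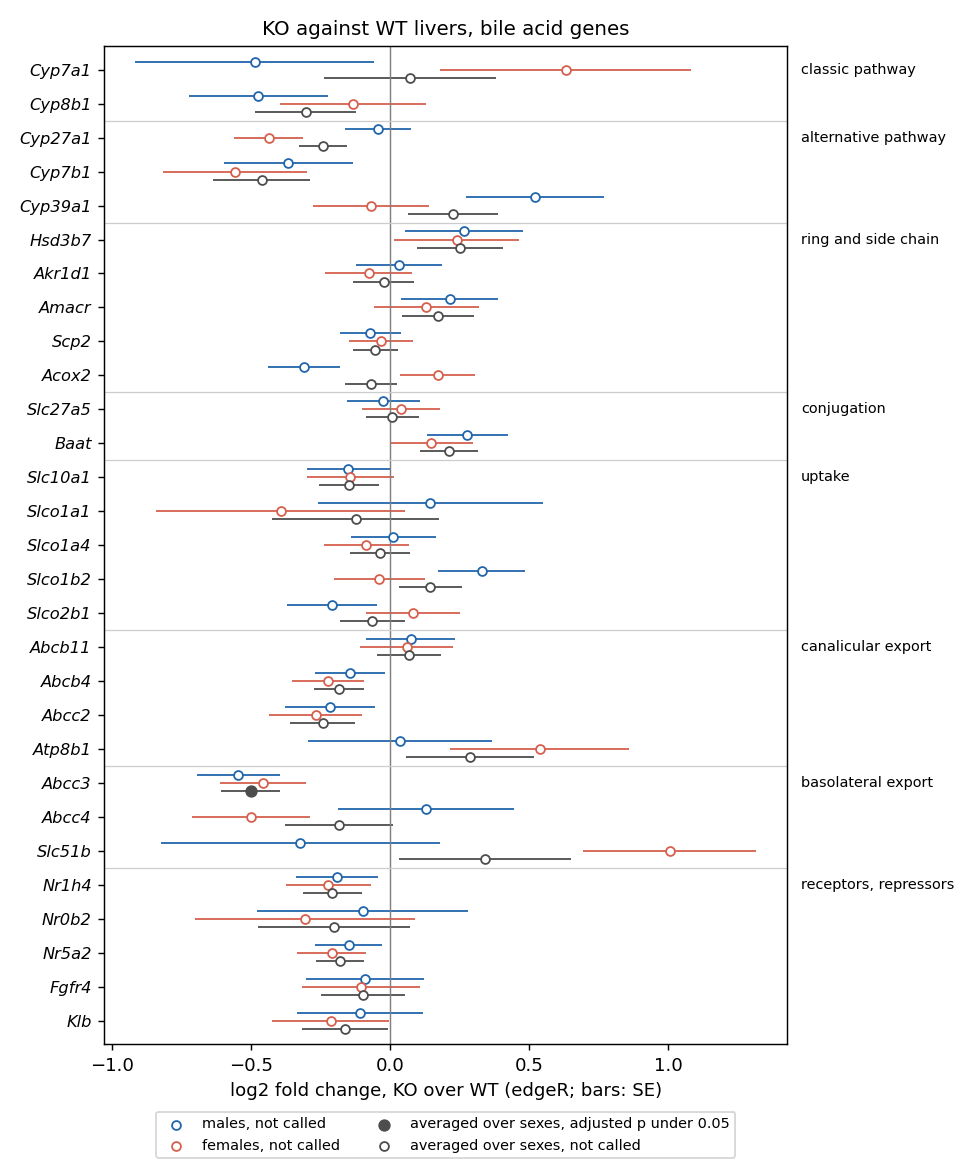
Log2 fold changes of the 29 tested members between KO and WT livers, with standard errors, in males, in females and averaged over the sexes, by edgeR. Most values lie within 0.6 of 0 on either side, Abcc3 is negative in both sexes, and Slc51b is at 1.01 in females.

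In females the members with an unadjusted p under 0.05 were Cyp27a1, Slc51b, Abcc3, Abcc4 and Cyp7b1. Cyp27a1, which encodes the mitochondrial sterol 27-hydroxylase, was between 25.7 and 39.0 CPM in Female KO, with a median of 33.4, and 44.4, 43.2, 53.5, 46.2 and 39.3 CPM in Female WT. All 6 Female KO libraries lay below all 5 Female WT libraries, though by little at the nearest pair. The log2 fold change of Cyp27a1 in females was -0.44 (SE 0.12), with an adjusted p of 0.217 by edgeR. Groups that do not overlap were found for 1 member in females, where the background was 1.07% of genes, and for 0 members in males, where it was 0.616%. In males Cyp27a1 was between 32.8 and 55.5 CPM in KO and between 39.2 and 49.9 CPM in WT, so that the groups overlapped. Its mean there was 40.4 ± 8.30 CPM in KO and 43.8 ± 4.90 CPM in WT (SD, n = 6 each), a log2 difference of -0.05 (SE 0.12).

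Slc51b encodes the beta subunit of the organic solute transporter, a basolateral bile acid exporter and an FXR target. It was between 4.09 and 8.23 CPM in Female KO, with a median of 6.60, and 2.95, 2.19, 4.58, 3.54 and 2.67 CPM in Female WT. The groups overlapped at Female WT replicate 3. The log2 difference of Slc51b in females was 1.01 (SE 0.31, edgeR adjusted p = 0.266). The two-sided exact permutation test gave an adjusted p of 0.0371 over the 120 tests, which include those between the sexes. These levels rest on 177 counts over 6 Female KO libraries and 88 counts over 5 Female WT libraries. In males Slc51b averaged 0.914 ± 0.767 CPM in KO and 0.960 ± 0.541 CPM in WT (SD, n = 6 each), too few counts to show a difference of moderate size (log2 difference -0.32, SE 0.50). Slc51a, the alpha subunit, had 1 count in all Male KO libraries, 6 in Male WT, 3 in Female KO and 10 in Female WT, so no fold was computed for it. Summed CPM of 8 markers of cholangiocytes, cells that also carry this transporter, was between 17.5 and 33.1 in Female KO and between 14.9 and 26.3 in Female WT. Their part in the result was not tested.

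Abcc4, another basolateral exporter (MRP4), averaged 3.46 ± 1.04 CPM in Female KO (SD, n = 6) and 5.11 ± 1.11 CPM in Female WT (SD, n = 5), a log2 difference of -0.50 (SE 0.21, edgeR adjusted p = 0.5). Cyp7b1, the oxysterol 7-alpha-hydroxylase of the alternative route, averaged 25.2 ± 12.5 CPM in Female KO and 38.3 ± 6.32 CPM in Female WT, a log2 difference of -0.56 (SE 0.26, edgeR adjusted p = 0.543). Neither passed the test. In males Cyp7b1 differed by -0.37 (SE 0.23), and averaged over the sexes by -0.46 (edgeR adjusted p = 0.199).

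**Figure D2:**
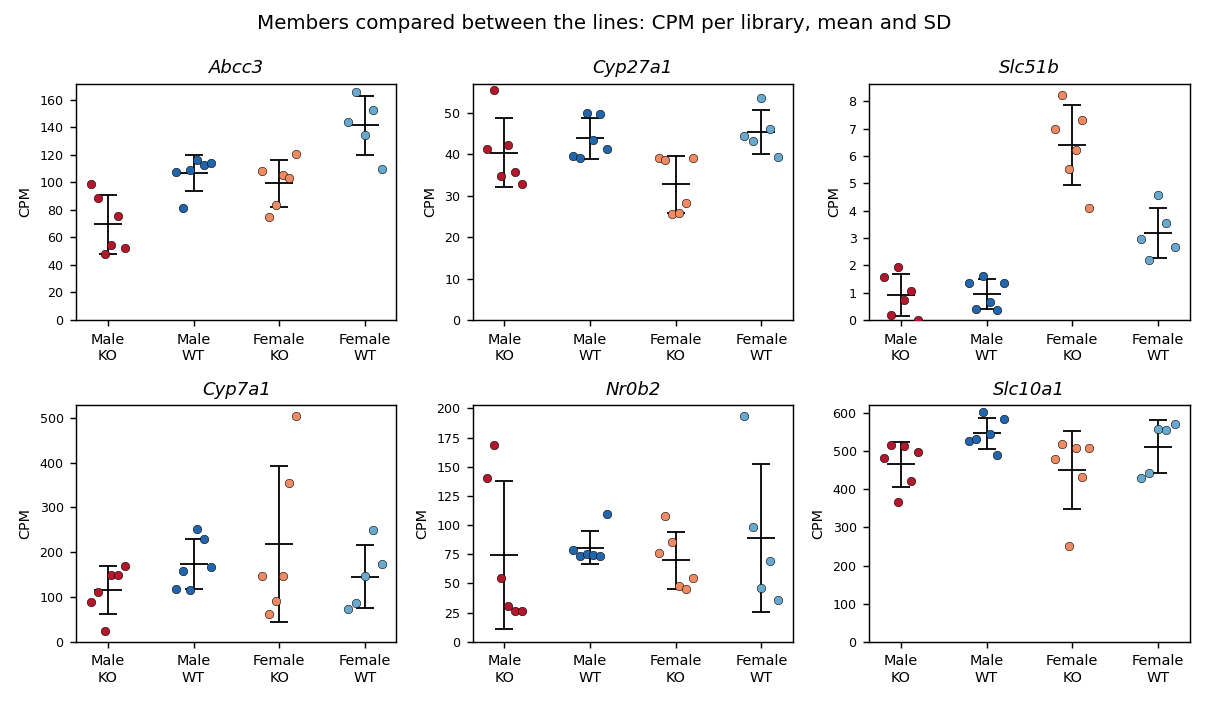
CPM per library of Abcc3, Cyp27a1, Slc51b, Cyp7a1, Nr0b2 and Slc10a1 in Male KO, Male WT, Female KO and Female WT, with mean and SD, on linear axes from 0. Abcc3 has its lower mean in KO in each sex, Cyp27a1 separates the groups in females only, and Cyp7a1 and Nr0b2 spread widely within groups.

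In males the members with an unadjusted p under 0.05 were Abcc3, Acox2, Slco1b2 and Cyp39a1. ACOX2 is the peroxisomal oxidase that shortens the bile acid side chain, and Acox2 was between 60.6 and 156 CPM in Male KO, with a median of 128, and between 134 and 163 CPM in Male WT, with a median of 158. Its log2 difference was -0.31 (SE 0.13, edgeR adjusted p = 0.321). In females Acox2 was between 119 and 165 CPM in KO and was 149.8, 113, 129, 135 and 133 CPM in WT, a log2 difference of 0.17 (SE 0.13). Slco1b2, an uptake transporter of hepatocytes, was between 838 and 1396 CPM in Male KO and between 791 and 1194 CPM in Male WT, a log2 difference of 0.33 (SE 0.16, edgeR adjusted p = 0.372). Cyp39a1, a 24-hydroxycholesterol 7-alpha-hydroxylase, was between 6.31 and 11.0 CPM in Male KO and between 2.50 and 9.22 CPM in Male WT, a log2 difference of 0.52 (SE 0.25, edgeR adjusted p = 0.375). For each of these 3 genes the libraries of the groups overlapped.

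The rate-limiting gene Cyp7a1 had opposite signs in the sexes, and neither value passed the test. Cyp7a1 was between 23.9 and 168 CPM in Male KO, with a median of 130.2, and between 116 and 251 CPM in Male WT, with a median of 162. In Female KO it was between 61.2 and 504 CPM, with a median of 147, and in Female WT it was 72.2, 86.6, 148, 249 and 173 CPM. The libraries of each pair of groups overlapped. The log2 difference was -0.49 in males (SE 0.43, edgeR adjusted p = 0.628) and 0.63 in females (SE 0.45, edgeR adjusted p = 0.761), and the interaction was -1.12 (SE 0.62, edgeR adjusted p = 0.934). With errors of this size a change of moderate size in Cyp7a1 was not detectable. Cyp8b1 averaged 310 ± 109 CPM in Male KO and 449 ± 73.5 CPM in Male WT (SD, n = 6 each), and these libraries overlapped. Its log2 difference was -0.48 in males (SE 0.25, edgeR adjusted p = 0.412) and -0.13 in females (SE 0.26, edgeR adjusted p = 0.944). Neither value of Cyp8b1 passed the test.

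The FXR gene Nr1h4 was between 14.2 and 38.1 CPM in Male KO and between 33.5 and 40.8 CPM in Male WT. In Female KO Nr1h4 was between 26.7 and 37.3 CPM, and in Female WT it was 31.7, 34.5, 33.9, 49.4 and 40.6 CPM, so that the lines overlapped in both sexes. It averaged 29.6 ± 8.62 CPM in Male KO and 36.3 ± 3.12 CPM in Male WT (SD, n = 6 each), and 31.8 ± 4.77 CPM in Female KO (SD, n = 6) and 38.0 ± 7.17 CPM in Female WT (SD, n = 5). Its log2 difference was -0.19 (SE 0.15) in males and -0.22 (SE 0.15) in females. Nr0b2, which encodes the repressor SHP, was between 26.0 and 168 CPM in Male KO, with a median of 42.8, and between 73.1 and 109 CPM in Male WT, with a median of 74.5. In Female KO Nr0b2 was between 45.6 and 108 CPM, with a median of 65.6, and in Female WT it was 193, 98.2, 46.2, 69.4 and 35.4 CPM. The spread of Nr0b2 within Male KO and within Female WT exceeded any difference between the lines. Its log2 difference was -0.10 (SE 0.38) in males and -0.31 (SE 0.39) in females. Together with Nr5a2, which encodes the activator LRH-1, and with Fgfr4 and Klb, the receptor and co-receptor for FGF15, all 5 members of this class had negative values in both sexes. These lay between -0.19 and -0.09 in males and between -0.31 and -0.11 in females, and 0 of 5 were called by edgeR or DESeq2. Of all genes, 44.1% had negative values in males and 48.3% in females.

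Slc10a1, which encodes NTCP, the sodium-dependent uptake transporter for conjugated bile acids, was between 368 and 515 CPM in Male KO, with a median of 489, and between 491 and 603 CPM in Male WT, with a median of 539. In Female KO it was between 250.2 and 519 CPM, with a median of 493.5, and in Female WT it was 429.9, 444, 559, 555 and 572 CPM. The groups overlapped in both sexes. Its log2 difference was -0.15 (SE 0.15) in males and -0.14 (SE 0.16) in females. Abcb11, which encodes the canalicular bile salt export pump BSEP, was between 76.1 and 168 CPM in Male KO and between 95.2 and 142 CPM in Male WT. In Female KO it was between 131 and 233 CPM, and in Female WT it was 221, 198, 223, 127 and 118 CPM, with overlap throughout. Abcb11 averaged 122 ± 32.5 CPM in Male KO and 122 ± 20.3 CPM in Male WT (SD, n = 6 each). It averaged 181 ± 36.4 CPM in Female KO (SD, n = 6) and 177 ± 51.1 CPM in Female WT (SD, n = 5). The difference of Abcb11 between the lines was 0.07 (SE 0.16) in males and 0.06 (SE 0.17) in females on the log2 scale. Slc27a5 and Baat, the ligase and the transferase of conjugation, differed by -0.02 (SE 0.13) and 0.28 (SE 0.14) in males and by 0.04 (SE 0.14) and 0.15 (SE 0.15) in females. None of these passed the test, and the standard errors bound what could have been seen.

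Hsd3b7, Akr1d1, Slc27a5, Abcc2, Slco2b1, Atp8b1 and Fgfr4 were called in no comparison by edgeR fitted to all groups. Hsd3b7, whose enzyme acts early on the sterol ring, was between 89.4 and 164 CPM in Male KO and between 62.7 and 151 CPM in Male WT, and between 68.7 and 147 CPM in Female KO and between 59.3 and 117 CPM in Female WT. Akr1d1, the reductase of the ring, averaged 35.8 ± 4.74 CPM in Male KO and 37.1 ± 4.66 CPM in Male WT, and 43.4 ± 7.97 CPM in Female KO and 46.9 ± 7.32 CPM in Female WT (SD, n = 6, and n = 5 in Female WT). For Slc27a5 the means were 507 ± 65.5 CPM in Male KO and 549 ± 45.1 CPM in Male WT, and 651 ± 87.3 CPM in Female KO and 656 ± 109.6 CPM in Female WT. The lines overlapped for Hsd3b7, and for Akr1d1 and Slc27a5 they differed by less than the SD of the more variable group. Abcc2 averaged 90.1 ± 21.4 CPM in Male KO and 110.0 ± 12.1 CPM in Male WT, and 130.1 ± 46.3 CPM in Female KO and 159 ± 37.3 CPM in Female WT. Slco2b1 ranged between 22.6 and 91.0 CPM in Male KO and between 63.9 and 89.1 CPM in Male WT, and between 76.4 and 119.7 CPM in Female KO and between 77.0 and 103 CPM in Female WT. Atp8b1 had its widest range in Female KO, between 7.14 and 39.3 CPM, against 6.90 to 20.9 CPM in Female WT. Fgfr4 also spread widely in Male KO, between 3.87 and 16.7 CPM, against 9.20 to 12.4 CPM in Male WT.

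Between the sexes the same list moved widely, in both lines. Cyp7b1 and the uptake transporter gene Slco1a1 were over 8-fold higher in males, Cyp8b1 and Scp2 were higher in males by a smaller factor, and Slco1a4, Cyp39a1, Abcc4, Slc51b and Abcb4 were lower in males. Each of these 9 members passed in KO and in WT mice, which share no libraries, and in the same direction. In KO 3 further members passed, Amacr, Slco1b2 and Cyp27a1, all higher in males. So among KO mice 12 of 29 members were called, 7 higher and 5 lower in males, against a background of 7.44% of genes (3.67% higher and 3.77% lower). Among WT mice 9 of 29 were called, 4 higher and 5 lower in males, against a background of 5.61% of genes (2.36% higher and 3.25% lower). The numbers of members whose male and female libraries did not overlap were 7 in KO, against 3.67% of genes, and 10 in WT, against 7.72% of genes. In KO these were Cyp7b1, Cyp39a1, Scp2, Abcc4, Slco1a1, Slco1a4 and Slc51b, and WT added Cyp8b1, Amacr and Abcb4.

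**Figure D3:**
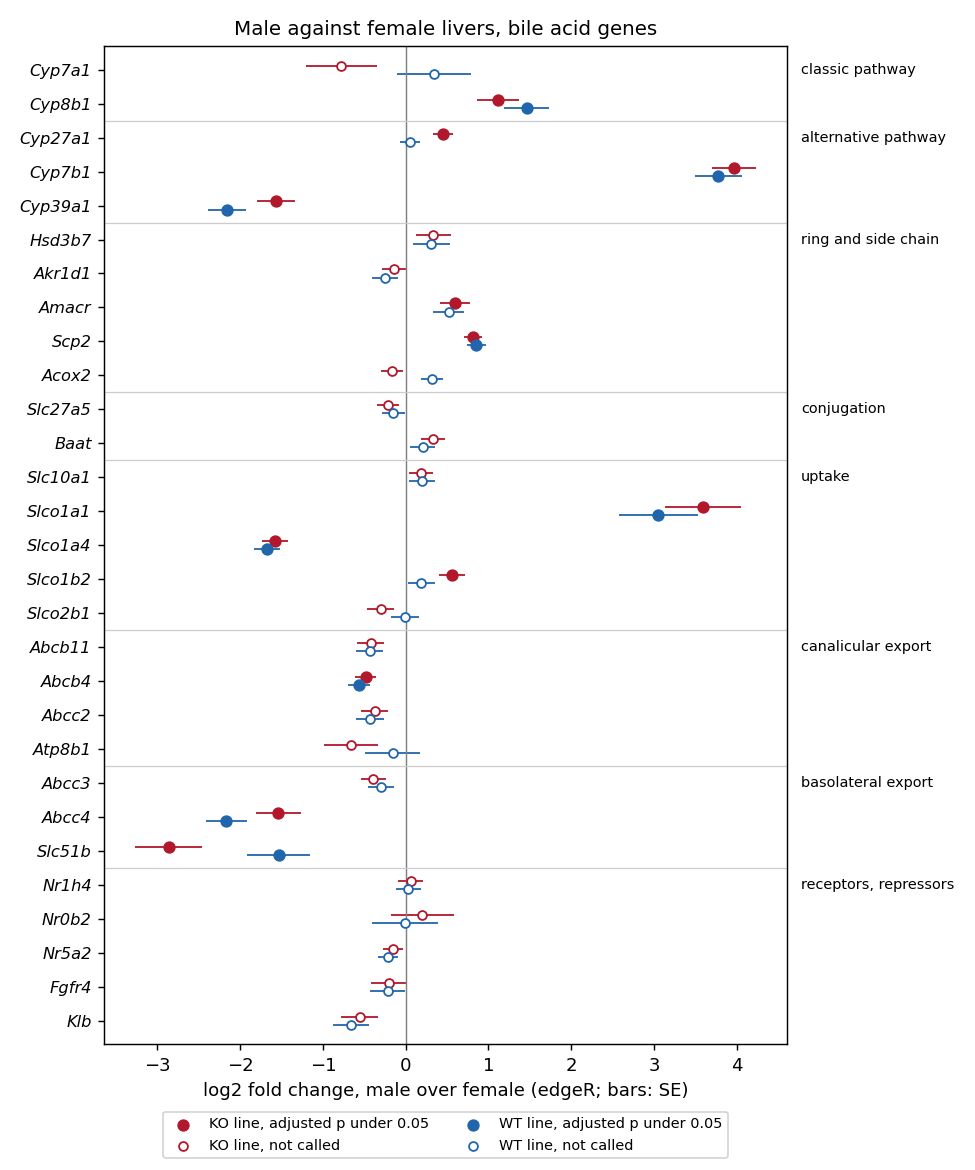
Log2 fold changes of the 29 tested members between male and female livers, with standard errors, in KO and in WT, by edgeR. Cyp7b1 (3.97 in KO and 3.78 in WT) and Slco1a1 (3.59 in KO and 3.05 in WT) stand highest, and Slc51b, Abcc4, Cyp39a1 and Slco1a4 stand lowest in both lines.

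Of the synthesis genes, Cyp7b1 was between 190.3 and 427 CPM in Male KO, with a median of 409, and between 11.3 and 42.7 CPM in Female KO, with a median of 21.8. Male WT libraries had between 396 and 750.3 CPM, with a median of 454, and Female WT libraries 40.0, 35.9, 48.3, 36.1 and 31.5 CPM. The lowest male library stood far above the highest female one in each line. The fold was 15.6 in KO (log2 3.97, SE 0.27, edgeR adjusted p = 1.18e-11) and 13.7 in WT (log2 3.78, SE 0.28, edgeR adjusted p = 1.02e-10).

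Cyp8b1, the sterol 12-alpha-hydroxylase, was between 153 and 445 CPM in Male KO, with a median of 303, and between 71.8 and 230.0 CPM in Female KO, with a median of 161. Among Male WT livers it was between 357 and 546 CPM, with a median of 453, and in Female WT it was 240.1, 179, 158, 100.1 and 193 CPM. The sexes overlapped in KO and did not in WT. The fold of Cyp8b1 was 2.18 in KO (edgeR adjusted p = 0.00489) and 2.76 in WT (edgeR adjusted p = 0.000564). Cyp7a1, the other classic-route enzyme, gave log2 differences of male from female of -0.78 (SE 0.43) in KO and 0.34 (SE 0.45) in WT, and did not pass in either, though without a filter on low counts edgeR called Cyp7a1 in KO.

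Cyp39a1 went the other way from Cyp7b1. It was between 6.31 and 11.0 CPM in Male KO, with a median of 8.26, and between 18.4 and 33.3 CPM in Female KO, with a median of 28.1. In Male WT it was between 2.50 and 9.22 CPM, with a median of 5.66, and in Female WT it was 26.3, 20.3, 38.4, 34.9 and 27.2 CPM. No male library reached the lowest female one. Cyp39a1 was 2.96-fold lower in males in KO (edgeR adjusted p = 2.01e-05) and 4.46-fold lower in WT (edgeR adjusted p = 1.13e-07). Cyp7b1 and Cyp39a1 thus differed between the sexes in opposite directions in both lines.

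Scp2 encodes sterol carrier protein X, the peroxisomal thiolase of the side chain, with sterol carrier protein 2. It was between 652 and 889.9 CPM in Male KO, with a median of 787, and between 419.9 and 553 CPM in Female KO, with a median of 484. In Male WT Scp2 was between 794 and 1007 CPM, with a median of 869, and in Female WT it was 482, 530.1, 536, 511 and 535 CPM. The sexes did not overlap in either line. The fold was 1.76 in KO (edgeR adjusted p = 7.05e-06) and 1.81 in WT (edgeR adjusted p = 8.25e-06). Amacr encodes the racemase that turns the side chain to the form the oxidase takes. It was between 5.10 and 14.2 CPM in Male KO and between 4.84 and 7.64 CPM in Female KO, and between 6.36 and 8.69 CPM in Male WT, while the Female WT libraries had 5.65, 6.17, 4.42, 6.02 and 6.05 CPM. The sexes overlapped in KO and did not in WT. Amacr averaged 8.74 ± 3.06 CPM in Male KO and 6.07 ± 0.978 CPM in Female KO (SD, n = 6 each). It averaged 7.54 ± 0.918 CPM in Male WT (SD, n = 6) and 5.66 ± 0.719 CPM in Female WT (SD, n = 5). The fold of Amacr was 1.52 in KO (edgeR adjusted p = 0.0409) and its log2 difference in WT was 0.52 (SE 0.18, edgeR adjusted p = 0.11). The Amacr call in KO was lost without Female KO replicate 1, 2, 5 or 6 or Male KO replicate 3, 5 or 6, with edgeR adjusted p between 0.051 and 0.097, in a fit of the KO groups alone (0.151) and without a filter on low counts (0.121).

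Cyp27a1 had a fold of 1.36 for males over females in KO (log2 0.45, SE 0.12, edgeR adjusted p = 0.021). In WT the log2 difference was 0.05 (SE 0.12, edgeR adjusted p = 0.876). Without Female KO replicate 3 or 5 the adjusted p of edgeR in KO was 0.0628 or 0.0624, in a fit of the KO groups alone it was 0.106, and without a filter on low counts it was 0.128. The interaction term for Cyp27a1, which tests the difference between these folds, was 0.39 (SE 0.17, unadjusted p = 0.0309, edgeR adjusted p = 0.848). Hsd3b7, Akr1d1 and Acox2, enzymes of the ring and side chain, and Slc27a5 and Baat were not called between the sexes. Their log2 differences lay between -0.21 and 0.34 in KO and between -0.24 and 0.32 in WT.

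**Figure D4:**
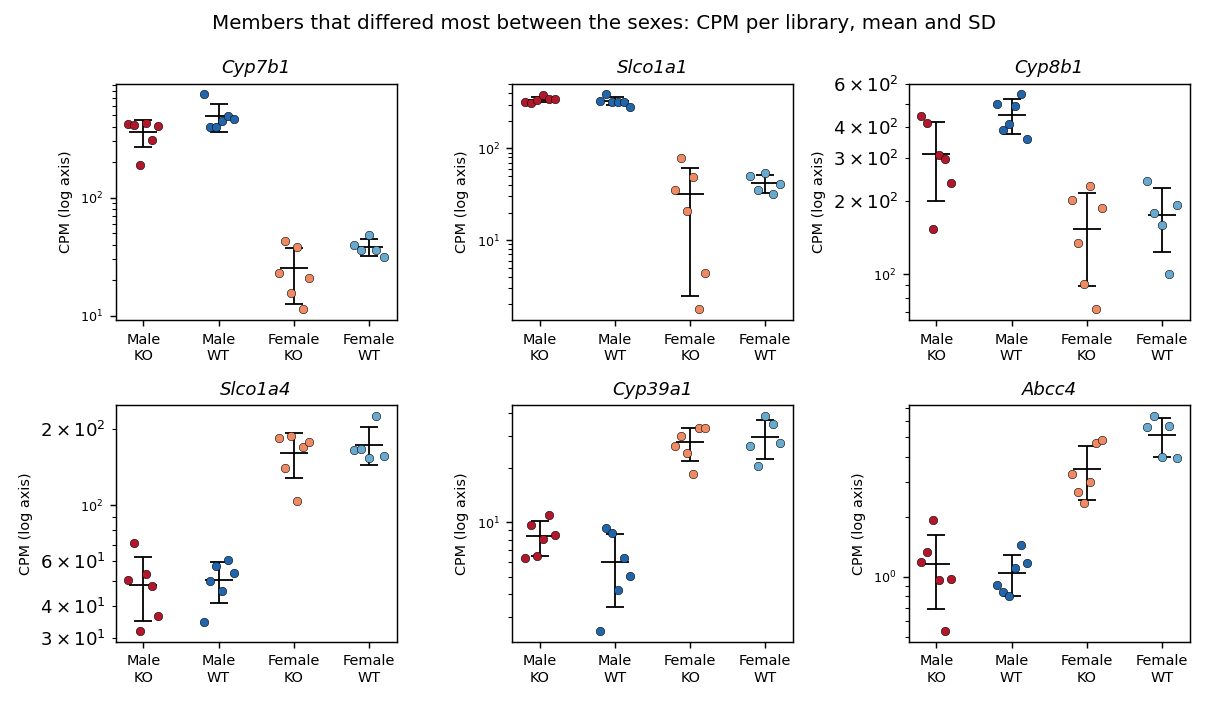
CPM per library, on a log axis, of Cyp7b1, Slco1a1, Cyp8b1, Slco1a4, Cyp39a1 and Abcc4 in Male KO, Male WT, Female KO and Female WT, with mean and SD. Cyp7b1, Slco1a1 and Cyp8b1 are higher in males and Slco1a4, Cyp39a1 and Abcc4 lower, and Slco1a1 spreads between 1.77 and 78.1 CPM in Female KO.

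Of the uptake transporters, Slco1a1 (OATP1A1) was between 312 and 377 CPM in Male KO, with a median of 339, and it was 35.1, 78.1, 20.8, 48.8, 1.77 and 4.40 CPM in the 6 Female KO libraries. In Male WT it was between 285 and 387 CPM, with a median of 321, and in Female WT it was 50.1, 34.9, 53.8, 31.8 and 40.5 CPM. Males lay far above females in both lines, and 2 Female KO libraries, replicates 5 and 6, lay far below the other females. The fold was 12.1 in KO (log2 3.59, SE 0.46, edgeR adjusted p = 2.44e-06; log2 5.01 by limma-voom with sample weights) and 8.31 in WT (log2 3.05, SE 0.48, edgeR adjusted p = 5.55e-05). Between Female KO and Female WT the log2 difference of Slco1a1 was -0.39 (SE 0.45, edgeR adjusted p = 0.866).

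Slco1a4 (OATP1A4), which lies near Slco1a1, was between 31.8 and 71.2 CPM in Male KO, with a median of 49.3, and between 104 and 189 CPM in Female KO, with a median of 174. In Male WT it was between 34.7 and 60.8 CPM, with a median of 52.1, and in Female WT it was 166, 168, 154, 225 and 157 CPM. The sexes did not overlap in either line. Slco1a4 was 2.98-fold lower in males in KO (edgeR adjusted p = 1.87e-08) and 3.19-fold lower in WT (edgeR adjusted p = 8.89e-09). Slco1a1 and Slco1a4 are close relatives, and how reads that fit both were counted is not given in the sources used here.

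Slco1b2 (OATP1B2) was between 838 and 1396 CPM in Male KO, with a median of 1156, and between 697 and 997 CPM in Female KO, with a median of 842. In Male WT it was between 791 and 1194 CPM, with a median of 928, and in Female WT it was 892, 1002, 866, 857 and 889.8 CPM. The sexes overlapped in both lines. The fold was 1.47 in KO (edgeR adjusted p = 0.0276), and in WT the log2 difference was 0.19 (SE 0.16, edgeR adjusted p = 0.618). The interaction term for Slco1b2 was 0.37 (SE 0.23, edgeR adjusted p = 0.934). Its call in KO was lost without Female KO replicate 1, 2 or 5 or Male KO replicate 3, 4 or 6, with edgeR adjusted p between 0.0562 and 0.086, in a fit of the KO groups alone (0.137) and without a filter on low counts (0.0727). Slc10a1 and Slco2b1 were not called between the sexes, with log2 differences of 0.19 (SE 0.15) and -0.30 (SE 0.16) in KO and 0.19 (SE 0.16) and -0.01 (SE 0.17) in WT.

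All 4 canalicular and all 3 tested basolateral exporters had negative values in KO, as did 49.1% of all genes, and in WT, as did 52.4%, and of these 7 the calls were 3 in each line, Abcb4, Abcc4 and Slc51b, all lower in males (against 3.77% of genes in KO and 3.25% in WT). Abcb4, which encodes the phospholipid flippase MDR2 of the canalicular membrane, was between 49.6 and 88.7 CPM in Male KO, with a median of 70.1, and between 85.2 and 125 CPM in Female KO, with a median of 109. In Male WT Abcb4 was between 70.1 and 92.7 CPM, with a median of 80.1, and in Female WT it was 143, 142, 126, 125 and 104 CPM. Male KO replicate 1 alone overlapped the Female KO range, and the sexes did not overlap in WT. Abcb4 was 1.40-fold lower in males in KO (edgeR adjusted p = 0.018) and 1.48-fold lower in WT (edgeR adjusted p = 0.00722). In KO the adjusted p of edgeR was 0.0509 without Male KO replicate 4 and 0.114 in a fit of the KO groups alone.

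Abcc4 was between 0.536 and 1.94 CPM in Male KO, with a median of 1.08, and between 2.33 and 4.83 CPM in Female KO, with a median of 3.13. Male WT libraries lay between 0.805 and 1.44 CPM, with a median of 1.01, and in Female WT it was 5.65, 6.37, 3.97, 5.66 and 3.91 CPM. The sexes did not overlap. Abcc4 was 2.90-fold lower in males in KO (edgeR adjusted p = 0.000323) and 4.49-fold lower in WT (edgeR adjusted p = 3.83e-07). The male levels rest on 27 counts over 6 KO libraries and 36 counts over 6 WT libraries.

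Slc51b was between 0 and 1.94 CPM in Male KO, with a median of 0.900, and between 4.09 and 8.23 CPM in Female KO. In Male WT it was between 0.361 and 1.61 CPM, with a median of 1.00, against the 5 Female WT values given above. The sexes did not overlap in either line, and 1 Male KO library had no count. Slc51b was 7.28-fold lower in males in KO (log2 -2.86, SE 0.40, edgeR adjusted p = 1.04e-05) and 2.90-fold lower in WT (log2 -1.53, SE 0.38, edgeR adjusted p = 0.0131). In WT the adjusted p was 0.0595 by edgeR without Female WT replicate 3. The interaction term for Slc51b was -1.33 (SE 0.59, unadjusted p = 0.0335, edgeR adjusted p = 0.848), so the larger fold in KO was not shown to differ from that in WT.

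Abcb11 had log2 differences of male from female of -0.42 (SE 0.16, edgeR adjusted p = 0.106) in KO and -0.44 (SE 0.17, edgeR adjusted p = 0.15) in WT. For Abcc2 (MRP2), which exports conjugates to bile, they were -0.38 (SE 0.16) in KO and -0.43 (SE 0.17) in WT. Abcc3 gave -0.39 (SE 0.15, edgeR adjusted p = 0.109) in KO and -0.30 (SE 0.15, edgeR adjusted p = 0.326) in WT. Atp8b1, a canalicular aminophospholipid flippase gene, gave -0.66 (SE 0.32) in KO and -0.16 (SE 0.33) in WT. None of these 4 was called. The receptors and repressors were not called between the sexes either. Klb, the co-receptor gene, came nearest, with a log2 difference of -0.56 (SE 0.22, edgeR adjusted p = 0.123) in KO and -0.66 (SE 0.21, edgeR adjusted p = 0.0737) in WT, while Nr1h4 gave 0.06 (SE 0.15) in KO and 0.03 (SE 0.15) in WT.

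Whether the genotype difference depended on sex was tested by the interaction term. By edgeR 0 of 29 members were called, against 0% of all genes, DESeq2 called 0 members, and 643 genes (5.66%) had an unadjusted p under 0.05. The 3 members below that unadjusted level were Acox2 at -0.48 (edgeR adjusted p = 0.796), Cyp27a1 and Slc51b.

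Within groups, Cyp7a1 and Nr0b2 spread more widely than most members. Slco1a1 spread widely in Female KO, where its SD was 92.2% of the mean. That share was 6.69% in Male KO, 10.2% in Male WT and 22.5% in Female WT. Cyp7a1 reached 355 and 504 CPM in Female KO replicates 5 and 6, the libraries with the lowest Slco1a1, while Male KO replicate 3 had 23.9 CPM of Cyp7a1. Dbp, a clock output gene whose protein is known in rat to act on the Cyp7a1 promoter, was 101 and 90.9 CPM in Female KO replicates 5 and 6, against 23.8 to 37.8 CPM in the other 4, and 14.8 CPM in Male KO replicate 3. Nr0b2 was 140.5 and 168 CPM in Male KO replicates 1 and 2, whose Dbp was 20.3 and 19.2 CPM, and 193 CPM in Female WT replicate 1, whose Dbp was 18.9 CPM. Male KO replicate 3, which had the lowest Dbp of all libraries, had 54.8 CPM of Nr0b2. Summed CPM of 18 clock genes was between 144 and 333 in Male KO, between 314 and 470 in Male WT, between 244 and 462 in Female KO and between 336 and 459 in Female WT, with 0 of 15 tested called between the lines by edgeR. In males 12 of the 15 were negative, against 44.1% of all genes (median log2 difference -0.44). In females 10 were negative, against 48.3% of all genes (median -0.12). In each sex 3 had an unadjusted edgeR p under 0.05, all lower in KO, against 13.1% of genes in males and 8.84% in females. The part of clock gene levels in these values was not tested. Male KO replicate 3 was the lowest of its group for 13 of 29 members and the highest for 5. Female WT replicate 5, which had the highest mitochondrial share of all libraries (16.2%), was the lowest of its group for 13 and the highest for 2.

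**Figure D5:**
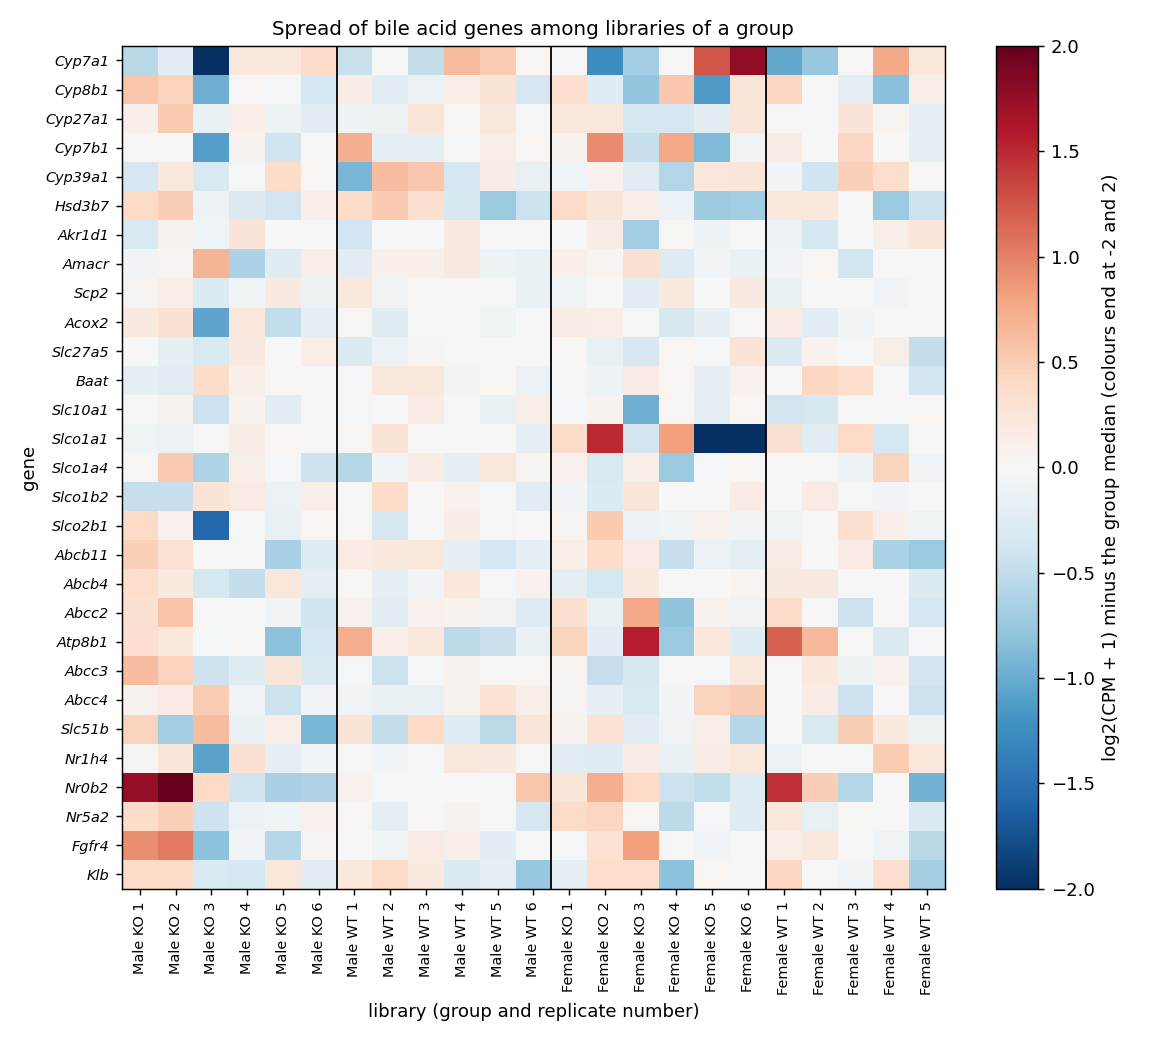
Log2(CPM + 1) of each member in each library minus the median of its group, with libraries in columns ordered Male KO, Male WT, Female KO and Female WT. Male KO replicate 3 shows many negative values, and Cyp7a1 and Nr0b2 have some of the widest swings between libraries.

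Of 75 further genes of bile acid synthesis, transport and regulation found in the table, 65 were tested, a list that holds other steroid enzymes, drug and sterol transporters and transcription factors. Between the lines 1 was called in females, Sult2a1, a bile acid sulfotransferase gene, at 1.30 on the log2 scale (edgeR adjusted p = 0.0207, against 0.193% of genes called), and 1 in males, Abcb1b, an efflux pump gene, at 1.30 (edgeR adjusted p = 0.0491, against 0.132% of genes). Averaged over the sexes Ppara, the fatty acid receptor gene, fell by 0.63 on the log2 scale (edgeR adjusted p = 0.0351), the 1 gene of this list called there, against 0.431% of genes. In KO mice 17 of the 65 were called between the sexes, against 7.44% of genes. The 7 higher in males were Akr1c6, Akr1c14, Slc10a2, Abcg2, Slco1a5, Sult2a8 and S1pr2, led by Slco1a5 at 2.62. The 10 lower in males were Cyp3a11, Slc10a5, Abcb1a, Myo5b, Sult2a1, Nr1i2, Ppargc1a, Prox1, Foxo1 and Srebf2, led by Sult2a1 at -7.98. In WT mice 10 were called, against 5.61% of genes, 4 higher in males (Slc10a2, Abcg2, Slco1a5 and Sult2a8) and 6 lower (Cyp3a11, Abcb1a, Myo5b, Sult2a1, Ppargc1a and Egr1). Slco1a5, a close relative of Slco1a1 and Slco1a4, was higher in males in WT by 2.38, and Sult2a1 stood at -7.61 there. The known sex-dependent genes of mouse liver checked the labels. Of 14 tested genes listed as higher in males, 12 were called higher in each line, against 3.67% of genes in KO and 2.36% in WT. Of 16 genes listed as lower in males 14 were tested. All 14 were called lower in each line, against 3.77% of genes in KO and 3.25% in WT. Cyp2b9 and Cyp2b13, which are in that list, had no count in Female KO or Female WT.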

How the data were processed

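RNA of 23 whole livers was sequenced, and the titles of the samples give each library's group and replicate number. The deposited table gives an expected count, which need not be whole, and a CPM value, relative to the library's counts, for each gene and library, made by the authors. Build mm39 and the tools STAR 2.7.11, featureCounts, Subread 2.1.1, fastp 0.24.0, FastQC 0.12.1, MultiQC 1.32 and SAMtools 1.22.1 are named per the submitters' processing notes, and their order and settings are not given in the sources used here. All columns were mapped to a sample, with 0 left over. Counts at the 3′ end carry no length correction, so levels were compared within a gene only.

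Counts were rounded and tested with edgeR 4.0.16 in R 4.3.3 (quasi-likelihood test, TMM, default filterByExpr, 11370 genes), with all 23 libraries in 1 fit, 4 groups and no block. The contrasts were KO against WT in each sex and averaged over the sexes, their interaction, and male against female in each line. Adjusted p-values are Benjamini-Hochberg over all genes tested. The standard error of a fold change is its size divided by the root of F. The fit was tested on simulated data. Each p-value weighs a difference between groups against the spread between these samples. Exact permutation tests used log2(CPM + 1), and CPM levels are means ± SD. Both leave out the TMM factors (0.837 to 1.11) that the edgeR fold changes use. A small log2 fold change can therefore differ in sign from the CPM means, as for Nr1h4 between the sexes.

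The members, the other gene lists and the tests were chosen with earlier results of these data known. Every member could be named, with values per library for members called in any contrast, members with an unadjusted p under 0.05 between the lines, and Cyp7a1, Cyp8b1, Slc10a1, Abcb11, Nr1h4 and Nr0b2. Of the further pathway genes those called were named. Dbp was added after values were seen.

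No library was a copy of another: over 55 pairs within groups the chi-square divided by its degrees of freedom ranged between 3.05 and 37.5. Alternatives were median-of-ratios scaling, leaving out mitochondrially encoded genes, no filter, DESeq2 1.42.0, limma-voom 3.58.1 with sample weights, only the groups of a contrast, a replicate block, unrounded counts, and each library left out. Promoter windows were RefSeq's on GRCm38.p6.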

Additional observations from a re-analysis of the deposited data

Results flagged for a closer look

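In 16 of 120 combinations of a member and a group, 1 library stood apart from the rest of its group, its gap to the nearest library being more than Dixon's 95% critical share of the group's range. Chance flags about 1 in 20 groups, and members of a library are not independent. Male KO replicate 3 was the low one for Cyp7a1 (23.9 CPM), Nr1h4 (14.2 CPM) and Slco2b1 (22.6 CPM). Female KO replicate 3 was the low one for Slc10a1 (250.2 CPM) and Akr1d1 (28.0 CPM). Male WT replicate 1 was high for Cyp7b1 (750.3 CPM) and low for Akr1d1 (28.6 CPM). Male WT replicate 2 was low for Abcc3 (81.5 CPM), and Male WT replicate 6 was high for Nr0b2 (109 CPM). Female WT replicate 2 was high for Slco1b2 (1002 CPM), replicate 3 was low for Amacr (4.42 CPM), and replicate 4 was high for Slco1a4 (225 CPM). Female KO replicate 2 was high for Slco2b1 (119.7 CPM). For Slc51a the high libraries were Male KO replicate 2 (0.167 CPM), Female KO replicate 5 (0.665 CPM) and Female WT replicate 4 (1.24 CPM), which rest on 10 counts or fewer in each group.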

How the results depend on the processing

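The calls of Cyp7b1, Slco1a1, Cyp8b1, Scp2, Abcc4, Cyp39a1 and Slco1a4 between the sexes held in both lines under every alternative fit. No result changed sign in these fits. By exact permutation, 9 members had an adjusted p under 0.05 between the sexes in KO and 11 in WT. In KO this test passed Slc27a5 (adjusted p = 0.0472) but not Cyp8b1 (0.0717), Cyp27a1 (0.227), Amacr (0.142) or Slco1b2 (0.136). In WT it also passed Amacr and Abcc2 (0.0273 each). Between the lines it passed Abcc3 in males and Slc51b in females, each with an exact permutation p of 0.00649 before adjustment. These passes depend on adjusting together with the tests between the sexes, whose many small p-values lower the adjusted p. An adjustment over the tests between the lines alone was not made. Member calls between males and females numbered 9 to 14 in KO and 8 to 10 in WT when single libraries were left out. Over the other alternatives they numbered 8 (fit of the KO groups alone) to 16 (limma-voom) in KO and 9 to 13 in WT. Without a filter on low counts Cyp27a1 (edgeR adjusted p = 0.128), Amacr (0.121) and Slco1b2 (0.0727) lost their calls in KO, and Cyp7a1 gained one. Those averaged over the sexes numbered 0 to 1. Without a filter on low counts, 1 member was called in males (Abcc3) and 2 averaged over the sexes (with Cyp7b1). With limma-voom sample weights there were 2 in males (Abcc3 and Slco1b2) and 2 averaged (Abcc3 and Cyp7b1). Over all genes, the calls without a filter were 62 in females, 157 in males, 244 averaged and 25 for the interaction, against 22, 15, 49 and 0. DESeq2 called 46 genes in females, 52 in males and 201 averaged. Limma-voom with sample weights called 49 in females, 685 in males and 628 averaged, and 2093 between the sexes in KO and 1251 in WT, against 846 in KO and 638 in WT. Fits of only the groups compared called 398 in KO and 1121 in WT. With single libraries left out, gene calls ranged between 13 and 31 in females, 7 and 49 in males, 26 and 186 averaged, and 592 and 1693 between the sexes in KO. The causes were not tested. With the replicate number as a block, 1 gene was called for the interaction and the Amacr call between the sexes in KO had an adjusted p of 0.0539 by edgeR, Abcb11 was called in its place, and no other member call changed. Same-numbered libraries of different groups are not labelled as pairs, and their deviations correlated between -0.362 and 0.317 over 33 pairs (15 over 0.1), with 7 of 23 libraries correlating best with their own number. Fits of only the groups compared do not exist for the averaged and interaction contrasts. Depth limits Slc51a, Slc51b and Abcc4 in males most.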
